A study of Microtus ochrogaster with 23 samples.

Results

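CpG-dense methylated windows are stretches of 1 kb in the prairie vole genome that hold many CpG cytosines and are nevertheless methylated in the hippocampal dentate gyrus. They were selected on measured values from reduced representation bisulfite sequencing (RRBS), in which DNA is cut with MspI, treated with bisulfite and sequenced, so that methylated and unmethylated cytosines can be counted. A window was chosen by 2 values: 15 or more of its cytosines were covered by 10 or more reads in no fewer than 4 animals of every group, and it had a level of at least 70% when the methylated reads of all 23 animals were divided by all their reads. Both cytosines of a CpG were counted separately, and chromosome X was left out. These criteria were met by 116 windows, out of 19359 windows with at least 15 such cytosines (here called CpG-dense), 50389 windows with at least 3, and 83715 with at least 1.

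The DNA came from frozen tissue punches of the dentate gyrus of wild-type adult prairie voles, *Microtus ochrogaster*, with 1 library per animal. The 6 “Attacker” animals were sexually naïve males that attacked an unfamiliar pup, and the 6 “Parental” animals were sexually naïve males that cared for it. The 5 “Father” and 6 “Mother” animals were pair-bonded males and females housed with their own litter, and every animal had met a pup in the test before its brain was taken. The “Attacker” males were taken from the pup as soon as they were aggressive, so the length of contact differed with that group. All cell types of a punch were sequenced together, so a level is a mixture over neurons, glia and other cells, and DNA carries no transcript by which the labelled tissue could be checked. The files held between 64896224 and 129376223 cytosine calls per animal, and no animal's library was left out.

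In mammalian genomes most CpGs are methylated, and methylation by DNMT3A and DNMT3B is copied to the new strand by DNMT1 when cells divide. CpG-rich stretches, the CpG islands, are the main exception: they usually lie at gene starts and stay unmethylated whether or not the gene is transcribed. Methylated CpG-dense stretches are known from genes that work only in the germline, from imprinted genes, from the inactive X chromosome, from repeated sequence and from the bodies of some genes.

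Methylation was rare among CpG-dense windows. Of the 19359, 18784 had a level of at most 20% (here called unmethylated), 459 lay between the limits, and the 116 methylated windows made up 0.599%. From 90% to 100% there were 30 windows, from 80% to 90% there were 49, and from 70% to 80% there were 37, against 37 between 60% and 70%. The methylated windows had fewer covered cytosines, with a median of 18.5 and a range from 15 to 72, compared with a median of 37 in the unmethylated windows. This count depends on coverage, and the CpG content of the sequence was not measured. The share of windows at 70% or above was 34.8% at 1 to 2 cytosines, 10.8% at 6 to 9, 2.27% at 15 to 19 and 0.0751% at 30 or more, where only 9 windows remained. Level and density were both part of the selection, so these shares are a description.

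**Figure D1:**
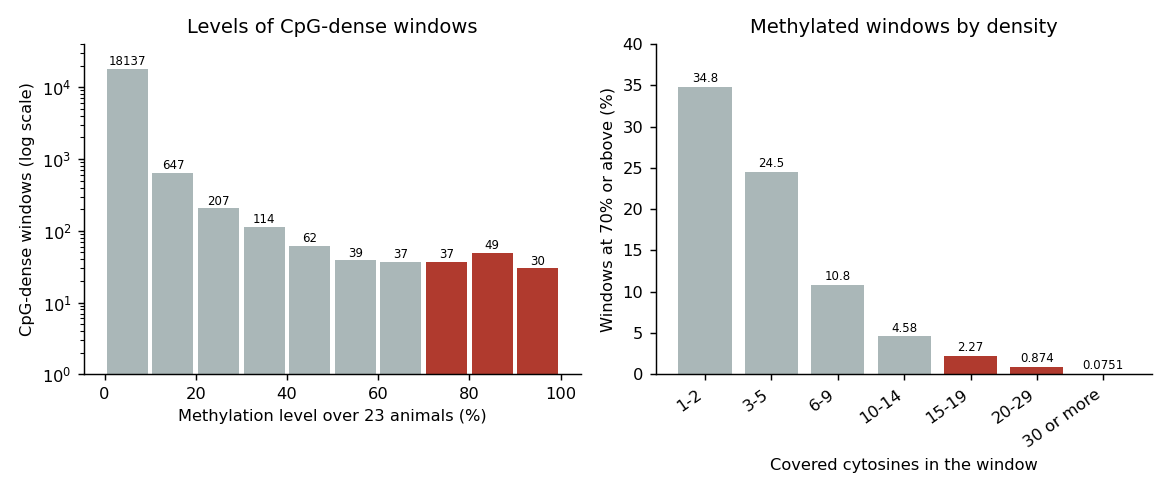
Left, number of CpG-dense windows (log axis) by methylation level over 23 animals in steps of 10 points, with the selected windows in red. Right, share of windows at a level of 70% or above, in percent, by the number of covered cytosines, with the selected range in red. The counts fall from 18137 below 10% to between 30 and 49 in each of the 3 highest classes, and the share falls from 34.8% to 0.0751%.

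At the limit of the selection, the lowest windows inside were JH996621.1:60000-60999 on an unplaced scaffold with 70.2%, JH996470.1:3391000-3391999 with 70.3%, Nlrc5 with 70.3%, JH996609.1:186000-186999 with 70.4% and Nfatc2 with 70.8%. Just outside lay a window in Sbno2 with 69.7%, LG8:17164000-17164999 with 69.2%, JH996493.1:41000-41999 with 69.0%, a window in Oplah with 68.3% and JH996735.1:20000-20999 with 68.3%. The highest levels were 98.2% at JH996494.1:1581000-1581999, 97.5% at JH996471.1:768000-768999, 96.9% at JH996457.1:2947000-2947999, 96.8% at JH996856.1:15000-15999 and 96.4% at chr19:41300000-41300999.

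Most placed methylated windows lay outside genes. On chromosomes and linkage groups of the MicOch1.0 assembly there were 54 of the 116, and 62 (53.4%) lay on 40 unplaced scaffolds, compared with 27.2% of the unmethylated windows. Of the 54 placed windows, 22 (40.7%) lay in the span of an annotated gene and 4 (7.41%) held the start or end of a gene, whereas 83.0% of the placed unmethylated windows lay in a gene and 49.6% held a gene end. Of the 32 placed windows outside genes, 9 were within 10 kb of a gene and 20 were more than 20 kb away from any. The gene table gives neither strand nor exons, so that gene starts could not be told from gene ends, nor exons from introns, and windows on unplaced scaffolds could not be assigned to genes.

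The 22 windows in genes touched 23 genes. The window with the most cytosines was in Dact1, which encodes an antagonist of Dishevelled in Wnt signalling. It lay at chr1:10078000-10078999, held 47 cytosines and had a level of 75.6%, with animals from 56.7% over a median of 76.0% to 84.9%. Toward the other end of the gene, 2 windows of 41 and 85 cytosines had levels of 0.302% and 0.631%. Dact1 thus held both states within 10348 bp. In each of the 23 animals the level of the methylated window was above those of the unmethylated ones, whose highest animals reached 1.67% and 1.55%. The windows had been sorted by their level over these same animals, so this order is a description.

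Germline genes were represented by Spo11 and Rbm46. Spo11, which makes the DNA breaks that start meiotic recombination, was the only one of 11 genes with a CpG-dense window in the germline list to hold a methylated one. Its window at LG8:5798000-5798999 covered 20 cytosines, contained an end of the gene and had a level of 86.2%. The “Attacker” animals ranged from 77.1% over a median of 87.2% to 100%, the “Parental” animals from 61.0% over 82.4% to 94.5%, the “Father” animals from 77.2% over 89.9% to 94.5% and the “Mother” animals from 86.8% over 90.2% to 95.7%. All 4 groups overlapped. Rbm46, an RNA-binding protein needed for meiosis, was not in the list and was placed here after its values were seen. Its window at chr1:123239000-123239999 had 29 cytosines and a level of 73.3%, and the adjoining window with 77 cytosines, which held an end of the gene, had 15.4%. In the methylated window the animals spread from 54.2% to 88.0%, and in the adjoining one from 6.68% to 38.9%. These ranges did not overlap, but both windows had been sorted by their level over the same animals.

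Genes of neurons and of the matrix followed. Dlgap3 encodes a scaffold protein of the postsynaptic density. Its methylated window at chr10:57347000-57347999 had 19 cytosines, a level of 73.3% and animals from 49.1% to 94.5% in the 22 animals with at least 10 reads, while windows at both ends of the gene had 2.56% and 0.475%. Draxin, a secreted guidance cue for axons, had a level of 72.2% at chr10:84833000-84833999 over 17 cytosines, with animals from 41.4% to 87.8%. The 2 other dense windows of Draxin were lower, with 4.08% and 25.0%. Col8a1, a chain of collagen VIII, had a level of 92.8% over 18 cytosines at chr2:46904000-46904999, with animals from 82.4% to 99.5%.

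Several windows lay in genes of transcription and signalling. Nfatc2, a transcription factor activated by calcineurin, had a level of 70.8% over 21 cytosines at LG8:9971000-9971999, with animals from 49.6% to 90.1%, and 0.617% at an end of the gene. Hdac4, a class IIa histone deacetylase, had 89.4% over 16 cytosines at LG4:59647000-59647999. Zbtb45 and Znf436, both zinc finger proteins, had 95.7% and 82.3%, and Ptpn14, a tyrosine phosphatase, had 92.4%. Pard6b, a component of the cell polarity complex, had the highest level in a gene with 96.3%, and its animals ranged from 87.3% to 100%.

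Further windows with many cytosines were those of LOC106144171 at LG4:22803000-22803999 with 24 cytosines and 92.0%, of Sike1 and Tmem259 with 22 cytosines each, of LOC101987887 with 20 and of Nlrc5 with 20. Sike1, an inhibitor of the kinase TBK1, shares its window at chr21:10744000-10744999 with the adjoining gene LOC101988260, since the 2 spans end and begin there. Its level was 76.1%, with animals from 43.9% to 91.8%. Tmem259, a protein of the endoplasmic reticulum, had 71.9% at LG1:3822000-3822999, next to a window at an end of the gene with 62.7%, whereas the window at the opposite end had 0.560%. Nlrc5, an activator of MHC class I genes, had 70.3% at chr4:14710000-14710999, where the pseudogene LOC101993957 is annotated within it. The remaining windows in genes were those of LOC101998725 with 92.8%, which held a gene end, LOC101991134 with 85.6% and LOC101983064 with 80.2%.

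Most of these genes also carried unmethylated CpG-dense DNA. Of the 23 genes, 15 had an unmethylated CpG-dense window in their span, 12 had it at an end of the span, 5 had a window of intermediate level, and 7 had no other CpG-dense window. Among all 11578 CpG-dense windows in placed genes, 11352 were unmethylated, so these counts are not read as a trait of the 23 genes. The share over all genes was not computed.

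**Figure D2:**
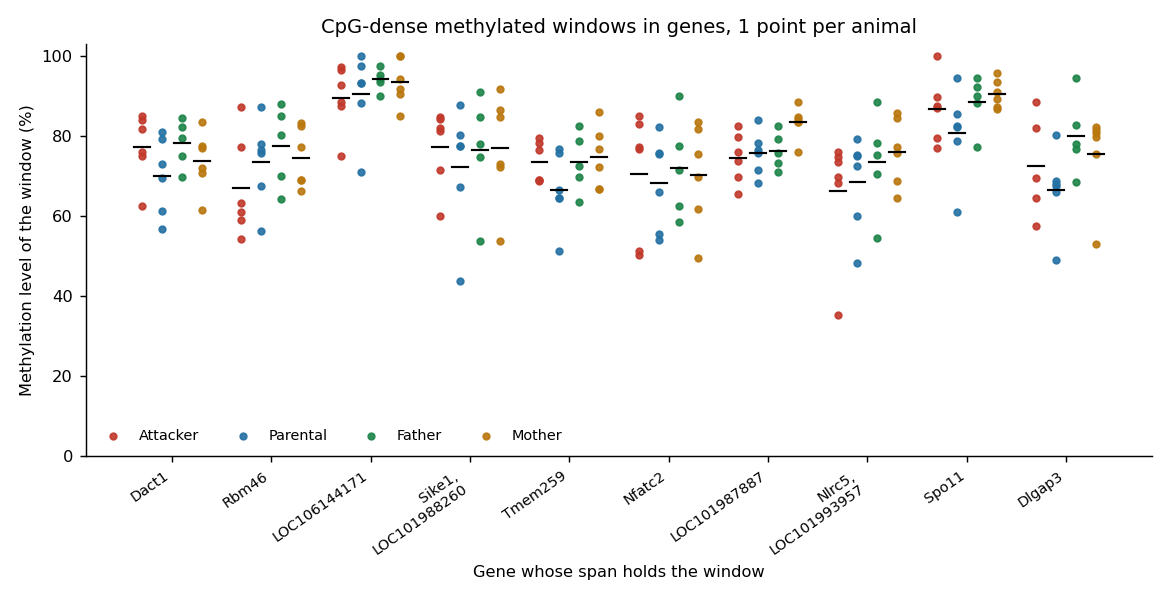
Methylation level, in percent, of the 10 gene windows with the most covered cytosines, with 1 point per animal, coloured by group, and a bar at each group mean. The points of the 4 groups overlap in every gene, and single animals lie as low as 35.3% in Nlrc5 and 43.9% in Sike1.

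Methylated and intermediate windows lay close together on chromosome 18. The interval chr18:25467254-26216482, which was singled out after its values were seen, runs from LOC101983064 to LOC101987887 and contains 5 genes named as protocadherins, Pcdhac1, Pcdhb1, Pcdhb2, Pcdhb3 and Pcdhb14. Clustered protocadherins are adhesion proteins of which each neuron expresses its own subset. Of the 14 CpG-dense windows in the interval, 3 were methylated (21.4%), 6 were intermediate (42.9%) and 5 were unmethylated, whereas 0.599% and 2.37% of all CpG-dense windows were methylated and intermediate. The interval was bounded by genes that hold methylated windows, so its share of these was raised by the choice, and the shares are a description. The 3 methylated windows had 80.2% in LOC101983064, and 75.4% and 77.8% in LOC101987887. The last of these adjoined a window with 39.5%. The 5 named protocadherin genes themselves held no CpG-dense window.

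The gene lists held few methylated windows. Among the 11578 CpG-dense windows in placed genes, 22 (0.190%) were methylated. The germline list had 1 of 13, the list of collagens and other matrix genes had 1 of 65, and the list of synaptic scaffolds and channels had 1 (0.901%). None was found among the 114 CpG-dense windows of Wnt genes, the 208 of homeobox and developmental genes, the 51 of dentate gyrus and neurogenesis genes, the 37 of imprinted genes, the 24 of genes of the methylation machinery and the 23 of neuropeptide and hormone genes. Dact1 and Draxin, which act on Wnt signalling, were not in the Wnt list. Dkk3, Fzd10, Enpp2, Apba2, Casz1 and S1pr5 had between 1 and 4 CpG-dense windows each, of which 0 were methylated, and Gpr39 and Colq had none to examine.

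Methylated windows also lay in groups. Within 50 kb of each other lay 35 of the 116 windows, in 11 groups, and 4 of these groups held at least 4 windows, 21 in all. On LG12, 6 windows lay within 16000 bp (15000-30999), 81607 bp from Cntnap2 at the closest, and had levels from 87.2% to 90.9%. On LG5, 6 windows lay within 45000 bp (6870000-6914999), the nearest 2417 bp from LOC101986204, and ranged from 76.9% to 95.3%. Scaffold JH996609.1 had 5 windows from 70.4% to 85.0%, and scaffold JH996639.1 had 4 from 78.5% to 95.0%, among them the window with 72 cytosines at JH996639.1:53000-53999, whose level was 78.5%. None of the 11 groups contained an unmethylated CpG-dense window.

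The DNA around the methylated windows was methylated as well. Covered windows 1 to 5 kb away had a mean level of 66.8% ± 1.09 (SD, n = 23 animals), and those around unmethylated CpG-dense windows had 11.9% ± 0.886. This gave a difference of 54.9 ± 1.15 points, but some of these flanking windows were CpG-dense themselves and so had been sorted by their own level. With all CpG-dense flanking windows left out, an alternative added after seeing the data, 194 windows around methylated and 13849 around unmethylated ones remained, and their levels were not used by the selection. Their means were 67.2% ± 1.17 and 20.4% ± 1.51. The difference of 46.8 ± 1.63 points was present in 23 of 23 animals and gave p = 1e-05 in a two-sided sign-flip permutation test over the animals, the smallest value that 100000 resamples allow. The same windows were read in every animal, so this p measures consistency over animals and not variation between windows. With all covered windows, the level fell from 84.2% in the windows to 73.2% and 74.5% in the adjoining windows on either side. It was between 53.7% and 68.6% at 6 to 10 kb. The fall was uneven, with 63.5% at -3 kb and 72.5% at -4 kb, and each distance rested on only 15 to 49 windows. Around unmethylated windows the level rose from 1.79% to between 20.4% and 24.6%. Of the adjoining windows that were not CpG-dense, 69.6% of 69 reached 70% beside methylated windows and 3.05% of 8699 beside unmethylated ones.

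**Figure D3:**
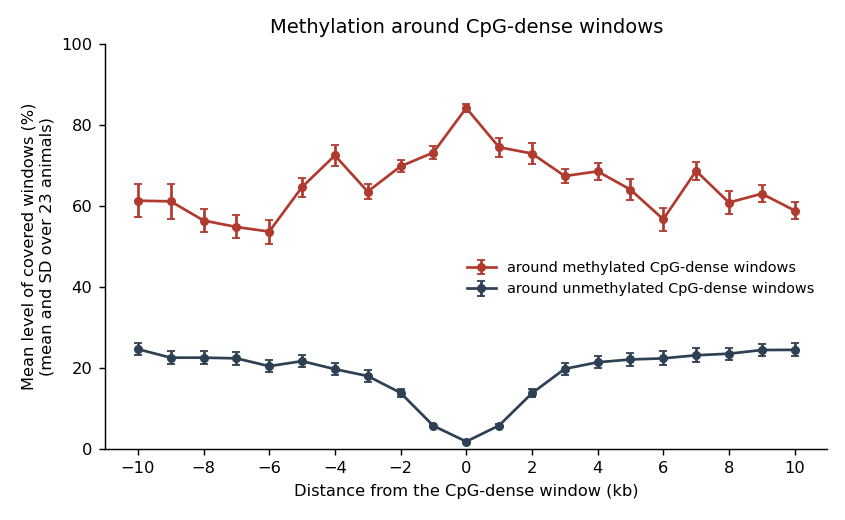
Mean methylation level, in percent, of all covered 1-kb windows, CpG-dense ones included, by distance in kb from CpG-dense windows that were methylated (red) or unmethylated (dark). Points and bars are the mean and SD over 23 animals, and the value at 0 is the CpG-dense window itself, 84.2% and 1.79%. The curves stay apart up to 10 kb on both sides. Away from 0, each red point rests on 15 to 49 windows.

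Within the windows most cytosines were methylated. Of 2379 cytosines, 50.2% had a level of at least 90%, 33.2% were from 70% to 90%, 15.9% from 20% to 70% and 0.673% (16 cytosines) below 20%. In 54 windows no cytosine was below 50%. The cytosines on both strands of a CpG could be compared at 583 CpGs, where they differed by a median of 3.56 points, compared with 3.43 points in methylated windows with 3 to 14 cytosines. The mean difference was 6.57 points compared with 5.32, and 6.69% of the pairs differed by more than 20 points compared with 3.28%. The 16 low cytosines lay in 12 windows. At chr2:19763112 in LOC101991134 the level was 3.49% in a window of 85.6%, and 18 of 21 animals had no methylated read there. In the Hdac4 window, 3 cytosines had 13.7%, 7.0% and 4.37%, with 0% in 15, 17 and 18 of 20 animals and up to 51.2% in the others. In 5 of the 16 low cytosines, some animal reached 90% or more.

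The spread between animals was a few points in most windows. The SD within groups had a median of 5.67 points (quartiles 4.22 and 7.37) over the windows with at least 10 reads in every animal, which left out 3 of the 116, and binomial counting alone gave a median of 1.08 points, although reads of the same fragment are not independent. A level pools the reads of all cytosines in a window, so uneven coverage of low and high cytosines between animals can also enter the SD. That part was not tested. Of the methylated windows with 3 to 14 cytosines, 2748 of 5504 met the same minimum in every animal. Their median SD was 10.2 points, where counting gave 2.47 points. It was 8.63 points in CpG-dense windows of intermediate level and 0.635 points in unmethylated ones. In all but 9 of the 116 windows each animal was above 50%, in 43 the range over animals was below 20 points, and in 4 it was above 50 points.

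The widest spread was at JH996621.1:60000-60999, with 21 cytosines and an SD of 15.8 points. The “Attacker” animals ranged from 26.5% over a median of 64.0% to 90.3%, the “Parental” animals from 75.7% over 81.2% to 85.1%, the “Father” animals from 51.2% over 58.7% to 80.6% and the “Mother” animals from 56.4% over 78.1% to 83.5%. The “Parental” animals stayed within a narrow range inside that of the “Attacker” animals. The next were JH996445.1:1071000-1071999 with an SD of 14.7 points and animals from 51.0% to 96.7%, JH996504.1:1198000-1198999 with 14.1 points and animals from 35.9% to 91.0%, JH996470.1:3391000-3391999 with 13.1 points and animals from 39.9% to 91.4%, and the window of Sike1 with 12.6 points. In all 5 the 3 lowest animals came from more than 1 group.

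At the median, the methylated windows had no consistent difference in depth from the unmethylated ones, but they included a few of extreme depth. Both kinds of window had to meet the same coverage minimum. Per animal, the median window had 57.2 ± 9.18 reads per cytosine (SD, n = 23) and the median unmethylated CpG-dense window had 53.9 ± 14.6. The mean log2 ratio was 0.12 and positive in 12 of 23 animals (p = 0.147, two-sided sign-flip permutation test with 100000 resamples). It ran from -0.519 to 0.942 over the animals, so single libraries differed in both directions. With the mean over windows in place of the median, the values were 110.7 and 62.4 reads and the log2 ratio was 0.85 (p = 1e-05, permutation test). Each p measures consistency over animals for the same windows. Of the 116 windows, 9 had a mean of more than 200 reads per cytosine and animal. A mean of more than 1000 was found in 2, JH996429.1:15006000-15006999 with 2077 reads and JH996494.1:1581000-1581999 with 1752. Summed over its cytosines, JH996494.1:1581000-1581999 had 1243 reads in 1 “Attacker” animal and 87011 in 1 “Father” animal. JH996429.1:15006000-15006999 had between 44575 and 104283 reads per animal. On chromosomes, LG5:1723000-1723999 had 364 reads, chr15:17132000-17132999 had 343 chr21:38756000-38756999 had 246 and chr5:2989000-2989999 had 231. The SD over animals had a median of 2.52 points in the 9 windows, where it ran from 0.696 to 9.70 points, 5.54 points in the 64 with 50 to 200 reads and 6.13 points in the 40 with fewer. The part of depth in these levels was not tested.

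**Figure D4:**
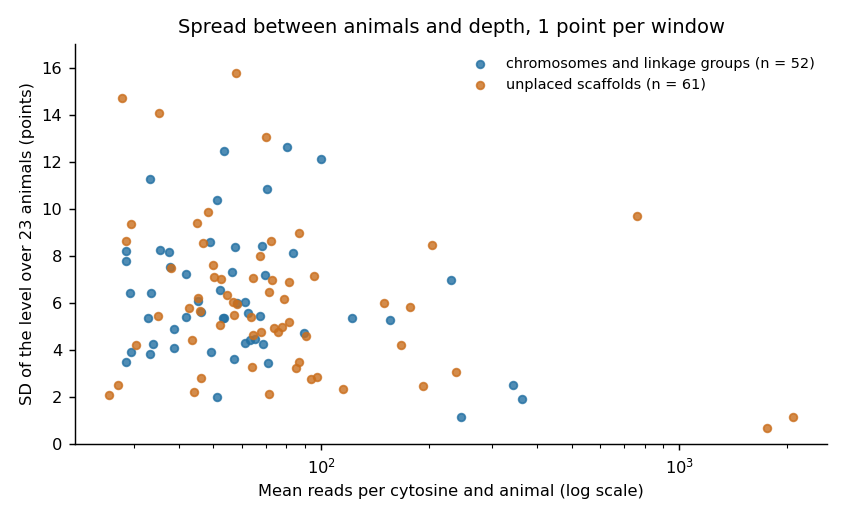
SD of the methylation level over 23 animals, in percentage points, against mean reads per cytosine and animal (log axis), with 1 point per window with at least 10 reads in every animal. Of the 9 windows above 200 reads, 5 lie on unplaced scaffolds, and the pair above 1000 reads has SDs of 1.16 and 0.696 points.

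The 4 comparisons of the study ask whether the dentate gyrus differs between virgin males that attack and those that care, between virgin males and fathers, and between fathers and mothers. Averaged over those windows in which no animal had under 10 reads, the level was 83.6% ± 0.864 (SD, n = 6) in “Attacker”, 83.6% ± 1.33 (n = 6) in “Parental”, 84.8% ± 0.865 (n = 5) in “Father” and 84.6% ± 0.804 (n = 6) in “Mother” animals. The animals of all groups overlapped, with “Attacker” from 82.3% to 84.9%, “Parental” from 81.8% to 85.0%, “Father” from 83.9% to 86.1% and “Mother” from 83.7% to 85.8%. The differences of the means were 0.0329 points for “Attacker” minus “Parental”, -1.22 points for “Attacker” minus “Father”, -1.26 points for “Parental” minus “Father” and 0.238 points for “Father” minus “Mother”. No p is given for these averages, since the windows were chosen with results of these data known. The pooled SD within groups was 0.994 points.

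In the “Attacker” vs “Parental” comparison, edgeR's quasi-likelihood test with Benjamini-Hochberg adjustment over all 50389 windows called 0 of the 116 windows, with 0% of all windows called. An unadjusted p below 0.05 was found in 3 windows (2.59%), below the 3.09% of all windows. limma on arcsine-transformed levels called 0 of the windows and 0% of all windows, and 8 (6.90%) had an unadjusted p below 0.05, against 4.97% of all windows. The beta-binomial Wald test called 0, against 0.143% of all windows, and 12 (10.3%) were below 0.05 unadjusted, against 8.24%. The median difference was 0.114 points, 59 windows were higher in “Attacker” and 57 in “Parental”, and the difference exceeded 15 points in 1 window, JH996621.1:60000-60999, described above, against 4.59% of all windows.

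In the “Attacker” vs “Father” comparison, edgeR called 0 of the 116 windows, again with 0% of all windows called, and 1 window (0.862%) had an unadjusted p below 0.05, against 3.38% of all windows. limma called 0, with 0% of all windows called, and 6 (5.17%) were below 0.05 unadjusted, against 5.09% of all windows. The Wald test called 0, against 0.185%, and 12 (10.3%) were below 0.05 unadjusted, against 8.35%. The median difference was -0.935 points, and 74 of the 116 windows were higher in “Father”. Over all windows the median was 0.0738 points and 53.5% were higher in “Attacker”. All windows had a median level of 4.62%, far below that of the methylated ones. This limits the setting of differences against all windows, here and in the other comparisons. Of the 116 windows 0 differed by more than 15 points, against 5.02% of all windows.

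In the “Parental” vs “Father” comparison, edgeR called 0 of the 116 windows, with 0% of all windows called, and 0 had an unadjusted p below 0.05, against 2.91% of all windows. limma called 0, with 0% of all windows called, and 5 (4.31%) were below 0.05 unadjusted, against 4.12%. The Wald test called 0, against 0.0913%, and 8 (6.90%) were below 0.05 unadjusted, against 7.05%. The median difference was -0.840 points, with 72 windows higher in “Father”, and over all windows the median was 0 and 49.7% were higher in “Parental”. JH996621.1:60000-60999 was the 1 window beyond 15 points, against 4.17% of all windows. Both comparisons with higher “Father” values use the same 5 animals.

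In the “Father” vs “Mother” comparison, in which sex and role change together and cannot be told apart, edgeR called 0 of the 116 windows, while 9 of all windows (0.0179%) were called. An unadjusted p below 0.05 was found in 2 windows (1.72%), against 3.68% of all windows. limma called 0, against 0.252% of all windows, and 4 (3.45%) were below 0.05 unadjusted, against 5.1%. The Wald test called 0, against 0.681%, and 7 (6.03%) were below 0.05 unadjusted, against 8.2%. The median difference was -0.00789 points, with 58 windows higher in either group, and 0 windows differed by more than 15 points, against 4.67% of all windows.

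**Figure D5:**
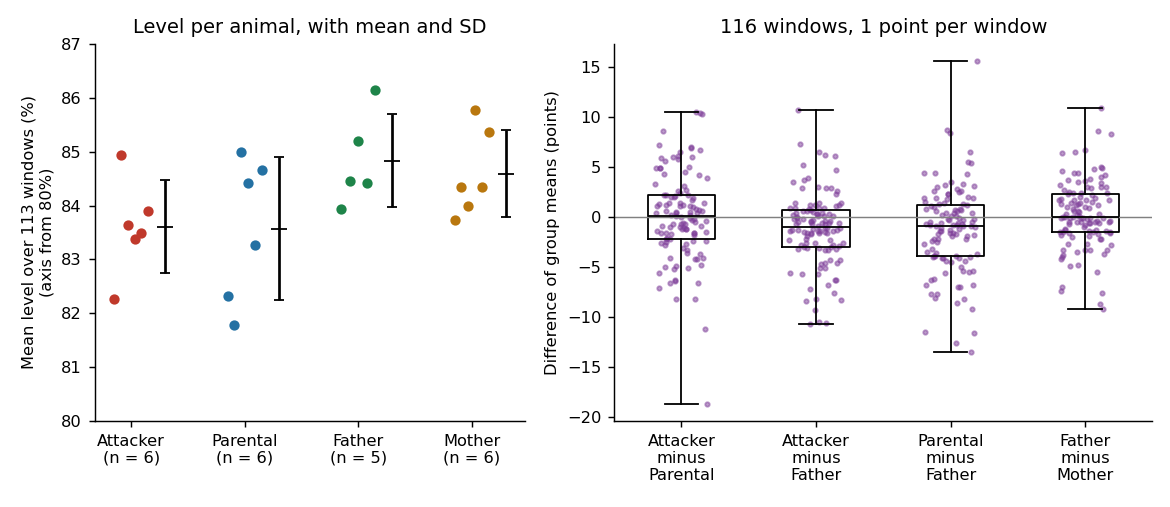
Left, mean methylation level over the windows with at least 10 reads in every animal, in percent on an axis that starts at 80%, with 1 point per animal and the mean and SD of each group beside it. Right, difference of the group means, in percentage points, for the 116 windows in each comparison, where the box gives the quartiles, the line the median and the whiskers the full range. The groups overlap on the left, and the medians on the right lie between -0.935 and 0.114 points.

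Levels that did not overlap between groups were also rare. Among windows with at least 10 reads in each animal compared, the groups did not overlap in 1 methylated window for “Attacker” vs “Parental” (0.885%, against 0.212% of all windows), in 0 for “Attacker” vs “Father” (0.316% of all), in 1 for “Parental” vs “Father” (0.870%, against 0.359% of all) and in 0 for “Father” vs “Mother” (0.636% of all). The first was the Hdac4 window. “Attacker” animals had 93.4% ± 2.87 (SD, n = 6, from 89.4% to 96.6%) and “Parental” animals 82.9% ± 4.84 (n = 6, from 77.8% to 88.6%), with an adjusted p = 1 in edgeR. When the 3 cytosines below 20% were left out, a step chosen after seeing the data, the 13 others had 97.3% ± 1.30 in “Attacker” and 95.2% ± 2.58 in “Parental” animals and the groups overlapped. The second was JH996462.1:1286000-1286999, one of the 9 deepest windows, with 66.5% ± 5.65 (n = 6) in “Parental” and 78.1% ± 5.29 (n = 5) in “Father” animals, where the highest “Parental” animal had 70.2% and the lowest “Father” animal 70.4%.

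Among the windows outside genes, LG5:374000-374999, 2108 bp from Mrps28, a protein of the mitochondrial ribosome, had the smallest p in both comparisons of “Father” with “Attacker” and with “Mother”, and was named after its values were seen. The “Father” animals lay between 91.5% and 95.6% (93.8% ± 1.58, n = 5), the “Attacker” animals between 66.5% and 93.0% (83.2% ± 9.79, n = 6), the “Mother” animals between 72.2% and 95.0% (82.9% ± 8.41, n = 6) and the “Parental” animals between 80.9% and 97.1% (91.4% ± 6.14, n = 6). Each pair of groups overlapped, and the adjusted p was 1 in edgeR for both comparisons, which share the 5 “Father” animals.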

How the data were processed

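RRBS libraries of the dentate gyrus from 23 prairie voles were analysed, 5 in the “Father” group and 6 in each of the “Attacker”, “Parental” and “Mother” groups, as given by the behavioral group of the labels. Per the study's methods and the labels, the reads were trimmed with Trim Galore and aligned with Bismark. For each animal the authors deposited the read count and the methylated read count of each CpG cytosine, without normalization. Depth lay between 64896224 and 129376223 calls per animal, and intervals of counting error treat reads as independent molecules, which they may not be.

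Counts were summed over 1-kb windows of cytosines covered by 10 or more reads in no fewer than 4 animals of every group, chromosome X left out. Groups were compared with edgeR 4.0.16 (R 4.3.3) on methylated and unmethylated counts, with a coefficient for each animal and a methylation coefficient for each group, a common dispersion, all 23 animals in the fit and Benjamini-Hochberg adjustment over 50389 windows with at least 3 cytosines. A window was called at an adjusted p below 0.05. Alternatives were limma 3.58.1, an arcsine-link beta-binomial Wald test, other filters, the replicate number as a block and each animal left out. A level of an animal was used where it had at least 10 reads in the window. Genes were taken from the RefSeq table of MicOch1.0, in which 7299 of the genes have no chromosome. The sequences of the windows were not used here.

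The windows and gene lists were chosen with earlier results of these data known. Named were the 10 gene windows with the most cytosines, the 5 with the largest SD, the 5 highest and 5 lowest levels, the 5 windows just under the limit, windows with a gene end, and up to 4 genes per list. Other named windows were chosen after their values were seen. An exact permutation test had been planned for the mean level over the windows, and its p is not given for that reason. The replicate numbers in the labels do not name a litter or batch, and 1 library per animal was sequenced. The highest share of cytosines at which any 2 animals held the same counts was 1.47%.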

Additional observations from a re-analysis of the deposited data

Results flagged for a closer look

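In 92 sets of values (the mean level and 22 named windows in each group) 6 had 1 animal that stood apart from the others of its group by Dixon's 95% critical value. Chance flags about 1 in 20 of sets chosen without regard to their values. The named windows included those with the largest SD and the highest and lowest levels, so this rate does not hold for them. In Dlgap3, 1 “Mother” animal had 53.0% and the others 75.5% to 82.3%. In Nlrc5, 1 “Attacker” animal had 35.3% and the others 68.1% to 76.0%. At JH996445.1:1071000-1071999, 1 “Father” animal had 53.6% and the others 88.0% to 95.1%. At JH996504.1:1198000-1198999, 1 “Attacker” animal had 37.4% and the others 79.2% to 89.2%. The remaining cases were small differences near full methylation, with 95.0% against 98.2% to 100% in “Parental” at JH996471.1:768000-768999 and 100% against 96.3% to 97.2% in “Father” at JH996856.1:15000-15999. The 4 low animals of the first windows were 4 different libraries. The mean level over all windows had no such animal in any group.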

How the results depend on the processing

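The number of windows depended on the selection. With a coverage minimum of 5 reads it was 205 and with 20 reads 36, with at least 20 cytosines 47 and with at least 30 cytosines 9, compared with 116. With strands merged and at least 8 CpGs it was 419. Merging pools the reads of both strands and the count minimum changed with it, and the cause was not tested. Without each replicate in turn it was 87 or more for animals of the other groups, and 68, 80, 71, 68 and 73 without “Father” replicates 1 to 5, since 4 animals of each group are required and 5 “Father” animals were present. With a level of 0.60 there were 153 windows, with 0.80 there were 79, with the mean of the cytosine levels 121, and on a shifted grid the count changed by 3.

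The count of called windows was 0 in all 4 comparisons with each test, filter and group of animals tried, and also without each replicate in turn (0 to 0), for which the dispersion of the full fit was used. With the replicate block it was 0 in each comparison, with 2, 0, 1 and 2 windows below 0.05 unadjusted, and it changed no call. Animals of the same number in different groups correlated with a median r of 0.0128 (from -0.0218 to 0.0834 over 33 pairs). Those of different numbers had a median r of -0.00431 (from -0.0814 to 0.0921 over 165 pairs). Both medians were small and the ranges overlapped, so the numbers were not taken to pair animals. Across windows of all kinds the Wald test called 72, 93, 46 and 343, and limma 0, 0, 0 and 127, where edgeR called 0, 0, 0 and 9. Without each replicate in turn, the mean level differed by -0.327 to 0.317 points for “Attacker” minus “Parental”, -1.49 to -0.895 for “Attacker” minus “Father”, -1.54 to -0.898 for “Parental” minus “Father” and -0.0922 to 0.474 for “Father” minus “Mother”. The difference in flanking level lay between 45.9 and 63.6 points under its 4 alternatives. The log2 ratio of depth was 0.85 with the mean over windows (p = 1e-05, permutation test) and -0.020 on chromosomes and linkage groups only (p = 0.825, permutation test). In the Hdac4 window, an alternative added after seeing the data (cytosines under 20% left out) moved the difference between “Attacker” and “Parental” from 10.5 to 2.04 points.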
